A study of Mus musculus with 19 samples.

Results

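Genes of cholesterol synthesis, sterol sensing and transport, and fatty acid synthesis were examined in sorted sensory neurons of the dorsal root ganglion (DRG). They were chosen by name from a list of 33, and the 32 that have a row among the 12629 genes of the expression table were analysed. Abca1, the remaining gene of the list, was not analysed here. The 32 genes comprise 7 enzymes of the early mevalonate steps, 11 enzymes from squalene to cholesterol, 5 genes of sterol sensing, 3 genes of sterol transport, efflux and receptor turnover, and 6 genes of fatty acid and glycerolipid synthesis.

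The study asked which genes sensory neurons change when integrin α9 and its activator kindlin-1 let their axons grow into the spinal cord. In every group the left C5–C8 DRGs were injected with AAV5, and neurons were sorted for GFP 8 weeks later. GFP-naive (5 libraries) received AAV5-CMV-fGFP without injury, and GFP-crush (4 libraries) received the same virus together with a crush of the dorsal roots. α9k1-naive (6 libraries) received AAV5-CAG-α9-V5 and AAV5-CMV-kindlin1-GFP without injury, and α9k1-crush (4 libraries) received both viruses and the crush. The CMV and CAG promoters are active in many cell types. In the α9k1 groups the gate saw kindlin1-GFP alone and co-transduction was incomplete, so that a sorted cell need not carry α9. The study's methods name adult male Lewis rats, whereas the labels name C57BL/6 mice, with the genotypes a9k1 overexpression and wild-type, and the reads were aligned to the mouse genome. The study describes its 4 to 6 replicates per condition as biological, but neither labels nor files tie a library to an animal. The p-values therefore measure the spread between libraries, which may in part be technical.

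Cells make cholesterol from acetyl-CoA through mevalonate, squalene and lanosterol. The pathway is set by the SREBP transcription factors: when sterols in the endoplasmic reticulum are scarce, SCAP carries SREBP to the Golgi, where its active part is released to switch on the enzymes, and when sterols are plentiful the INSIG proteins hold SCAP back. SREBP-2, made from Srebf2, acts mainly on sterol genes, and SREBP-1c, made from Srebf1, mainly on fatty acid genes. A growing axon needs new membrane, and in nervous tissue both neurons and glia can supply its cholesterol, glia by synthesis and export in lipoproteins. Myelin is particularly rich in it.

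Library depth ranged from 36.4 to 87.6 M read pairs. The aligned share of reads was 47.5% to 54.1%, and 3.87% to 4.05% of aligned bases differed from the mouse reference. Values are log2 of normalized counts, with library medians between 4.30 and 4.48. Fermt1, which encodes kindlin-1, lay between 0.42 and 0.80 in the GFP libraries, between 5.18 and 6.00 in α9k1-naive and between 6.42 and 7.73 in α9k1-crush. Itga9 lay between 1.77 and 2.40 in GFP-naive, 0.90 and 1.92 in GFP-crush, 2.38 and 5.16 in α9k1-naive, where replicate 2 (2.38) was within the GFP-naive range, and 5.53 and 7.51 in α9k1-crush. The 10 sensory neuron markers were present, with a log2 summed level of 12.61 to 14.27, but so were 10 markers of myelinating Schwann cells (12.14 to 14.0) and 8 of satellite glia (11.24 to 13.03), the cells that wrap axons and neuronal somata. Whether the sorted neurons or other cells held the glial transcripts was not tested. In bulk libraries fewer cells of a type and less RNA per cell cannot be told apart.

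α9k1 expression without injury was accompanied by higher levels of the cholesterol synthesis genes. Of the 32 genes, 17 were higher in α9k1-naive and 1 (Srebf2) was higher in GFP-naive at an adjusted p under 0.1 (limma fit over all 19 libraries with 3 covariates of library quality), whereas 11.4% of all genes were called higher and 17.6% lower. The median log2 fold change (log2FC) was 0.33 for the 32 genes and -0.08 for all genes. The α9k1-naive libraries lay wholly above the GFP-naive libraries for 14 of the genes and wholly below for 1, against 8.43% and 13.2% of all genes. By role, 6 of 7 early mevalonate genes, 8 of 11 genes from squalene to cholesterol, the sterol sensor Insig1, the sterol carrier Stard4 and the fatty acid gene Acly were higher.

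In the early mevalonate steps, Idi1, the isomerase that interconverts the building blocks of isoprenoids, changed most. Its log2 level was 6.20, 6.50, 6.29, 6.38 and 6.32 in GFP-naive, and it ranged from 7.71 to 7.96 with a median of 7.82 in α9k1-naive. The libraries of the groups were far apart, and the fitted difference was 1.66 ± 0.13 (SE), or 3.16-fold (adjusted p = 2.71e-07). Fdps, which joins these units into farnesyl diphosphate, was at 8.77, 8.71, 8.89, 8.76 and 8.94 in GFP-naive and from 9.35 to 9.56 with a median of 9.52 in α9k1-naive. No library overlapped, and the log2FC was 0.85 ± 0.11 (adjusted p = 8.73e-05). Acat2, the thiolase that condenses acetyl-CoA at the entry of the pathway, stood at 8.39, 8.42, 8.46, 8.42 and 8.44 in GFP-naive and from 8.92 to 9.32 (median 9.15) in α9k1-naive, again without overlap (log2FC 0.69 ± 0.14, adjusted p = 0.00309). Hmgcs1, the HMG-CoA synthase, was at 8.89, 8.98, 8.87, 9.12 and 8.86 against 9.39 to 9.63 (median 9.50), with a log2FC of 0.55 ± 0.12 (adjusted p = 0.00557). The decarboxylase Mvd (0.47) and the mevalonate kinase Mvk (0.39) were also higher, with adjusted p of 0.0201 and 0.0358. Pmvk, the second kinase of the pathway, had a log2FC of 0.30 ± 0.15 that did not pass the test (adjusted p = 0.165).

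Between squalene and cholesterol, the largest difference was that of Msmo1, the methylsterol oxidase. Msmo1 was at 8.28, 8.58, 8.47, 8.40 and 8.48 in GFP-naive and between 9.18 and 9.57 (median 9.39) in α9k1-naive. The groups did not overlap and the log2FC was 0.96 ± 0.13 (adjusted p = 0.000109). Cyp51, the lanosterol demethylase, was at 9.02, 9.19, 9.17, 9.39 and 9.10 in GFP-naive and between 9.68 and 10.26 (median 10.04) in α9k1-naive, with a log2FC of 0.78 ± 0.16 (adjusted p = 0.00294). Every α9k1-naive library thus exceeded every GFP-naive library. Sqle, the squalene epoxidase and a rate-limiting enzyme, had levels of 7.18, 7.18, 7.30, 7.22 and 7.10 against 7.48 to 7.95 (median 7.67), and Lss, which cyclizes its product to lanosterol, 7.04, 6.89, 7.01, 7.18 and 6.97 against 7.38 to 7.89 (median 7.64). Both were higher without overlap, by 0.57 ± 0.13 and 0.50 ± 0.14 (adjusted p = 0.00576 and 0.0196). Squalene synthase Fdft1 (0.33), Nsdhl (0.35), Hsd17b7 (0.60) and the desaturase Sc5d (0.34), which act on sterol intermediates or, for Fdft1, form squalene, were called with adjusted p between 0.0392 and 0.0896. Tm7sf2 (0.28), Ebp (0.31) and Dhcr7 (0.14), the last of which makes cholesterol from its immediate precursor, did not pass the test. All 18 enzymes had a positive log2FC. The least firm of these calls were that of Nsdhl, made in 7, that of Sc5d, made in 8, and that of Hsd17b7, made in 10 of 19 fits that each left out 1 library. Without α9k1-naive replicate 6 the log2FC of Hsd17b7 moved to 0.93 and that of Sc5d to 0.58.

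**Figure D1:**
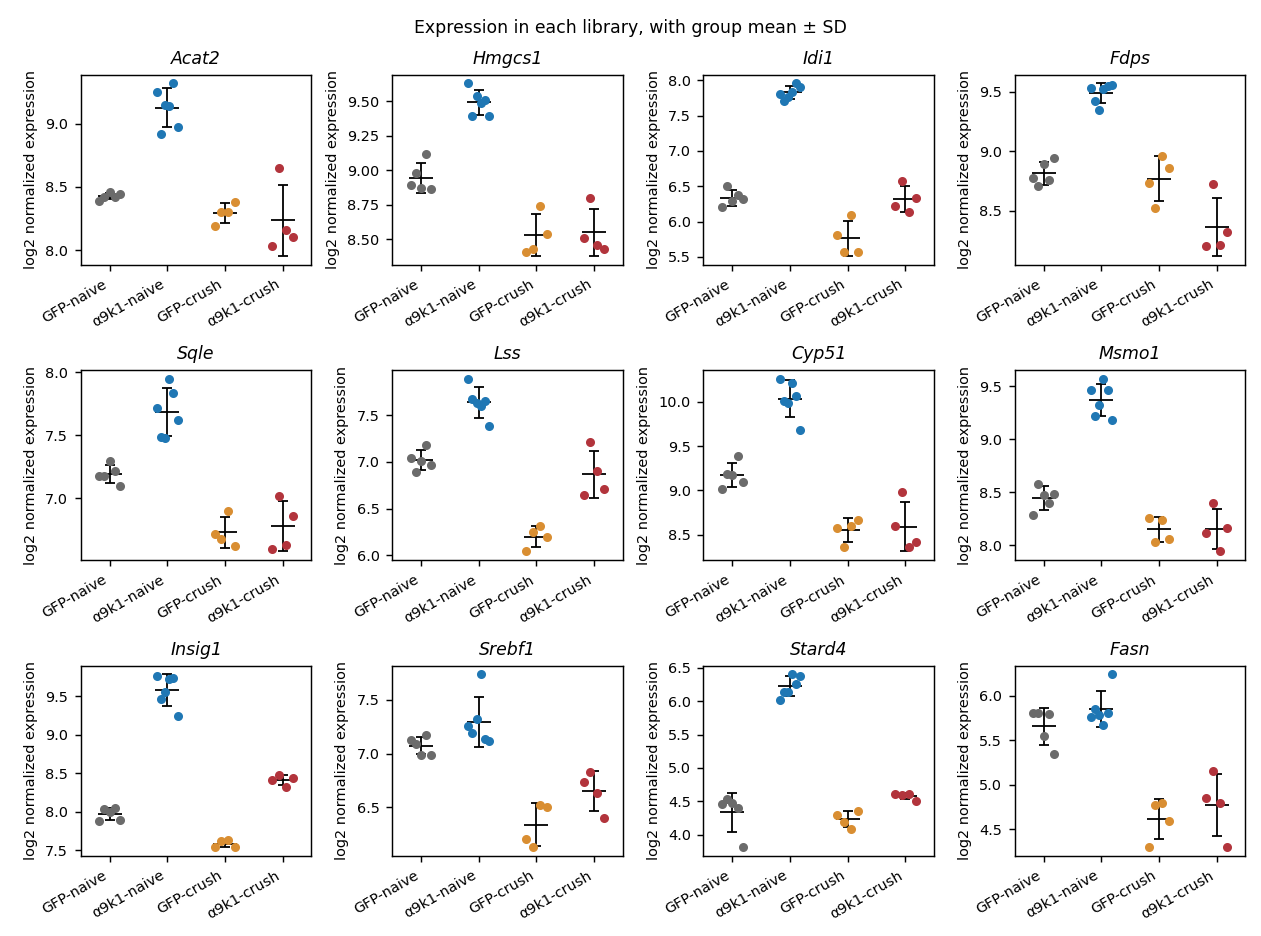
Log2 normalized expression (y axis) of the 12 genes with the smallest adjusted p in the 4 groups (x axis). Points are libraries, and black bars are the group mean ± SD. The 6 α9k1-naive libraries (blue) lie above the GFP-naive libraries (grey) in 10 of the 12 panels, whereas those of Srebf1 and Fasn overlap. The α9k1-crush libraries (red) lie below the α9k1-naive libraries in all 12.

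Among the regulators, Insig1 and Srebf2 moved in opposite directions. Insig1, which retains SCAP in the endoplasmic reticulum and is itself a target of SREBP, was at 7.88, 8.03, 8.00, 8.05 and 7.89 in GFP-naive and from 9.24 to 9.76 (median 9.64) in α9k1-naive. The libraries were separate by more than a log2 unit, and the log2FC was 1.50 ± 0.11, or 2.82-fold (adjusted p = 2.71e-07). Srebf2 was lower, at 6.16, 5.95, 5.97, 5.94 and 5.98 in GFP-naive and 4.80 to 5.69 (median 5.10) in α9k1-naive (log2FC -0.49 ± 0.13, adjusted p = 0.0173). Its libraries did not overlap either. The fall was -0.86 without the covariates. Insig2 (0.21), Srebf1 (0.19) and Scap (-0.11) did not pass the test. Srebf1 lay at 7.13, 7.09, 6.99, 7.17 and 6.99 in GFP-naive and from 7.12 to 7.74 (median 7.22) in α9k1-naive, where the groups overlapped.

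Stard4, a cytosolic carrier that moves sterol between membranes and is another SREBP target, had the largest difference of the 32 genes. It was at 4.46, 4.53, 4.47, 4.40 and 3.82 in GFP-naive and between 6.02 and 6.40 (median 6.19) in α9k1-naive. No GFP-naive library came near, and the log2FC was 1.88 ± 0.15, or 3.69-fold (adjusted p = 3.89e-07). Abcg1, an exporter of sterol to lipoproteins, and Mylip, the ubiquitin ligase that sends lipoprotein receptors to degradation, had log2FC of -0.36 ± 0.18 and -0.22 ± 0.21 and were not called. Both are targets of the sterol-activated receptor LXR.

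Of the fatty acid genes only Acly, which supplies cytosolic acetyl-CoA to both pathways, was called (log2FC 0.55 ± 0.15, adjusted p = 0.0178). Fasn, the fatty acid synthase, was at 5.80, 5.81, 5.55, 5.79 and 5.34 in GFP-naive and from 5.67 to 6.24 (median 5.79) in α9k1-naive. These values overlapped, with a log2FC of 0.32 ± 0.20 (adjusted p = 0.275). The desaturases Scd1 (0.20) and Scd2 (0.23), the acetyl-CoA carboxylase Acaca (-0.24) and the phosphatidate phosphatase Lpin1 (0.04) did not pass the test.

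The promoters of these genes were searched for letters that SREBP and its partner factors are known to bind. RefSeq promoter windows of the mouse genome (GRCm38.p6, 250 bases before to 50 after a start) were found for 25 of the 32 genes. Fdps, Fdft1, Sqle, Stard4, Abcg1, Scd1 and Scd2 had no entry. On both strands, the NF-Y box CCAAT was found in the windows of 21 of 25 genes (84.0%), against 42.9% of the measured genes with a window and 41.1% of all genes in the table. The Sp1 box GGGCGG was found for 21 of 25 (84.0%), against 69.9% and 38.2%. The sterol regulatory element core TCACNCCAC was found for 1 of 25 (4.0%), against 1.45% and 1.44%, and the E-box CACGTG for 5 of 25 (20.0%), against 12.1% and 8.09%. No matches of different motifs overlapped in these windows. The NF-Y box was held by 12 of the 13 windowed genes that were higher in α9k1-naive, by the 1 that was lower, and by 8 of the 11 that were not called. Such matches are letters in a window and not bound sites. The windows are of the mouse genome, whereas the study's methods name rats.

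Windows of 4 genes are shown: Idi1 and Insig1, which rose most among the genes with a window, Srebf2, which moved the other way, and Hmgcs1, the gene with the sterol element core. Capitals mark the sterol element core and the NF-Y box in either orientation (CCAAT or ATTGG).
Hmgcs1, chr13:119690101-119690400, plus strand: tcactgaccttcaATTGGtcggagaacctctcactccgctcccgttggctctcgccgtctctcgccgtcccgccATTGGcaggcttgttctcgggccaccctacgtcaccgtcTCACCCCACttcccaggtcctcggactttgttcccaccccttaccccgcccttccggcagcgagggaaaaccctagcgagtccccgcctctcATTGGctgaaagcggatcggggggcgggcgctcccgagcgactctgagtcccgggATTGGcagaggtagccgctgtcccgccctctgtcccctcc
Idi1, chr13:8885356-8885655, plus strand: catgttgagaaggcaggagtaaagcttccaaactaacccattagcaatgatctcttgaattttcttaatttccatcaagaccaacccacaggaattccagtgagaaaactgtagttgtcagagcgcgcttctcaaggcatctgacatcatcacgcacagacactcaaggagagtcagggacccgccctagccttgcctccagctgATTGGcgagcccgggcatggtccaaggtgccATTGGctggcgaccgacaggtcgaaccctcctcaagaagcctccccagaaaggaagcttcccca
Insig1, chr5:28071162-28071461, plus strand: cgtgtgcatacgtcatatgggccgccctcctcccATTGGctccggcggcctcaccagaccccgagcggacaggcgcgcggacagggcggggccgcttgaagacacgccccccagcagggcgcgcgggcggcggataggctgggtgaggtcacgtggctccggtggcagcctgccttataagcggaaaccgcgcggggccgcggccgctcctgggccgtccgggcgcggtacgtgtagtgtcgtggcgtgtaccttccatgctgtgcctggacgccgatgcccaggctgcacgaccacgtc
Srebf2, chr15:82147019-82147318, plus strand: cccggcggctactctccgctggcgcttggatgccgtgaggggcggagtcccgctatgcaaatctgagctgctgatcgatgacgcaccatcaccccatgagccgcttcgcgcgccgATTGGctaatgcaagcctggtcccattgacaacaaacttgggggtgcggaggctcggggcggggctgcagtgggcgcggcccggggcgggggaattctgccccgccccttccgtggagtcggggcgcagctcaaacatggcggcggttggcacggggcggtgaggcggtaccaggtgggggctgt
Hmgcs1 held the core once, starting at position -137 counted from the start site, with 4 NF-Y boxes. The windows of Idi1, Insig1 and Srebf2 held 2, 1 and 1 NF-Y boxes and no sterol element core.

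Crush of the dorsal roots in GFP-expressing neurons was accompanied by lower levels of 5 of 6 fatty acid genes and of part of the sterol genes. In GFP-crush, 15 of 32 genes were lower and 0 were higher than in GFP-naive, against 15.7% lower and 7.39% higher among all genes (limma, 16 of the 32 at an unadjusted p under 0.05). The median log2FC was -0.35, against -0.08 for all genes. The GFP-crush libraries lay wholly below the GFP-naive libraries for 15 genes and wholly above for 0, against 12.2% and 7.59% of all genes. The called genes were 2 of 7 early mevalonate enzymes, 4 of 11 enzymes from squalene to cholesterol, 3 of 5 sterol sensing genes, Mylip and 5 of 6 fatty acid genes. Of the called genes Mylip, Acaca and Scd2 overlapped between the groups. Acat2, Tm7sf2 and Msmo1 lay wholly below but were not called.

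Fasn was lowest relative to its GFP-naive level, at 4.30, 4.77, 4.79 and 4.59 in GFP-crush. All 4 were below the lowest GFP-naive library, and the log2FC was -1.10 ± 0.20, or 0.465-fold (adjusted p = 0.00279). Its regulator Srebf1 was at 6.20, 6.13, 6.52 and 6.50, also below every GFP-naive library (log2FC -0.61 ± 0.14, adjusted p = 0.0107). Scd1 (-0.56), Acaca (-0.66), Acly (-0.41) and Scd2 (-0.36), which act before or after Fasn, were called lower, and Lpin1 (0.11) was not called. Scd2 was called in 7 and Acly in 10 of 19 fits without 1 library.

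Among sterol enzymes, Idi1 was at 5.81, 5.57, 6.09 and 5.57 in GFP-crush, below all GFP-naive libraries (log2FC -0.72 ± 0.13, adjusted p = 0.00249). Lss, at 6.04, 6.25, 6.31 and 6.20, was lower by a similar amount (-0.70 ± 0.14, adjusted p = 0.00589). Cyp51 at 8.58, 8.36, 8.60 and 8.67 (-0.54 ± 0.16), Sqle at 6.72, 6.68, 6.90 and 6.62 (-0.49 ± 0.13) and Hmgcs1 at 8.41, 8.43, 8.74 and 8.54 (-0.42 ± 0.13) were also called, with adjusted p of 0.0377, 0.0228 and 0.038. Each of these 5 enzymes was lower in every GFP-crush library than in every GFP-naive library. Sc5d was the sixth called enzyme (-0.46, adjusted p = 0.0341).

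Insig1 had levels of 7.55, 7.62, 7.63 and 7.55 in GFP-crush, a tight cluster under the GFP-naive range (log2FC -0.34 ± 0.11, adjusted p = 0.0627). Scap (-0.40) and Mylip (-0.73) were called too, with adjusted p of 0.0644 and 0.0341. The Mylip libraries overlapped, at 2.62 to 3.56 in GFP-crush and 3.19 to 4.02 in GFP-naive, and Mylip was not called without covariates. Fdps was at 8.73, 8.52, 8.96 and 8.86, Acat2 at 8.19, 8.30, 8.30 and 8.38, Msmo1 at 8.26, 8.03, 8.24 and 8.06, and Stard4 at 4.30, 4.20, 4.09 and 4.36, and none of these was called (log2FC -0.09, -0.06, -0.31 and -0.12). Srebf2 was at -0.10 ± 0.13 (adjusted p = 0.666). The remaining 11 genes, among them Mvk, Hsd17b7 and Abcg1, had log2FC between -0.40 and 0.02 and were not called. The count of 15 was 8 without GFP-naive replicate 2 (8.37% of all genes lower in that fit) and 6 without GFP-crush replicate 2 (10.9%). It was 9 when each library median was subtracted, which raised the median of all genes by 0.14 and left 14.5% of all genes higher and 9.34% lower.

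**Figure D2:**
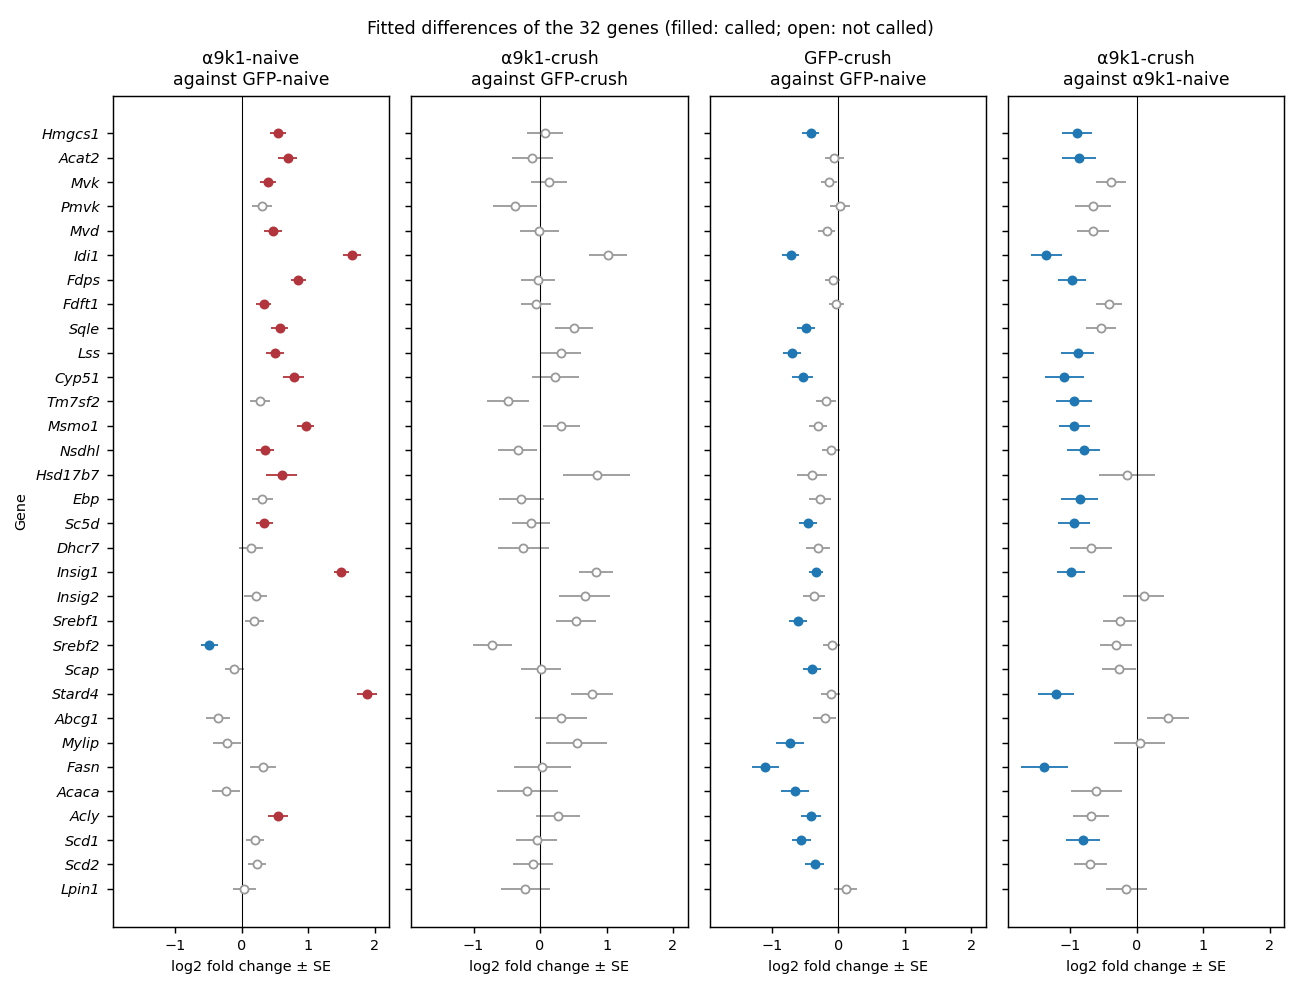
Fitted log2FC ± SE (x axis) of each of the 32 genes (y axis) in the 4 comparisons. Filled red and blue points are genes called higher and lower at an adjusted p under 0.1, and open points were not called. The first panel holds 17 red points and 1 blue point, the second none, and both crush panels on the right 15 blue points each.

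In α9k1-expressing neurons the crush was likewise accompanied by lower sterol genes. Compared with α9k1-naive, 15 of 32 genes were lower and 0 were higher in α9k1-crush, against 5.27% lower and 4.47% higher among all genes (limma, 21 of the 32 at an unadjusted p under 0.05). The median log2FC was -0.70 and that of all genes 0.00. The libraries lay wholly below those of α9k1-naive for 21 genes and wholly above for 0, against 16.1% and 17.4% of all genes. This comparison shares the α9k1-naive libraries with the comparison of α9k1-naive and GFP-naive, so that high values there enter both. The transgenes also differed between these groups, with Itga9 higher in α9k1-crush by 3.51 ± 0.93 (adjusted p = 0.0404) and Fermt1 by 1.67 ± 0.49 (adjusted p = 0.0591) on the log2 scale, and their part in the result was not tested. Called genes were 4 of 7 early mevalonate enzymes, 7 of 11 later enzymes, Insig1, Stard4, Fasn and Scd1.

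Idi1 was at 6.22, 6.57, 6.14 and 6.33 in α9k1-crush (log2FC -1.36 ± 0.23, adjusted p = 0.00446). These levels were under every α9k1-naive library and on either side of the GFP-naive mean of 6.34. Stard4 at 4.61, 4.60, 4.61 and 4.51 fell by 1.22 ± 0.27 (adjusted p = 0.0168), and Insig1 at 8.41, 8.48, 8.32 and 8.44 fell by 0.99 ± 0.21 (adjusted p = 0.0124). For both, the α9k1-crush libraries lay above every GFP-crush library. Fdps at 8.20, 8.72, 8.21 and 8.32 (-0.97 ± 0.21, adjusted p = 0.0136) and Msmo1 at 8.11, 8.40, 7.94 and 8.16 (-0.94 ± 0.23, adjusted p = 0.0303) overlapped with GFP-crush.

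Cyp51 was at 8.60, 8.98, 8.36 and 8.42 (-1.09 ± 0.29), Hmgcs1 at 8.51, 8.80, 8.46 and 8.43 (-0.90 ± 0.22), Acat2 at 8.03, 8.65, 8.16 and 8.10 (-0.87 ± 0.26) and Lss at 6.64, 7.21, 6.90 and 6.71 (-0.89 ± 0.25), with adjusted p between 0.0301 and 0.0611. In each of these replicate 2 was the highest. Tm7sf2 (-0.95), Sc5d (-0.94), Ebp (-0.86) and Nsdhl (-0.80), which act between lanosterol and cholesterol, completed the called enzymes. The calls of Ebp, made in 3, and of Nsdhl, made in 7 of 19 fits without 1 library, were the least firm. Sqle at 6.60, 7.02, 6.63 and 6.86 had a log2FC of -0.54 ± 0.23 (adjusted p = 0.192), and Fdft1, Mvk, Mvd, Pmvk, Dhcr7 and Hsd17b7 had values from -0.69 to -0.15 and were not called either.

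Fasn was at 4.85, 5.15, 4.79 and 4.30 in α9k1-crush, under every α9k1-naive library (log2FC -1.39 ± 0.36, adjusted p = 0.0338). Scd1 had a log2FC of -0.81 ± 0.26 (adjusted p = 0.0798) and was called lower, in 10 of 19 fits without 1 library. Srebf1, at 6.74, 6.83, 6.63 and 6.40, lay below the α9k1-naive range, but its fitted difference of -0.26 ± 0.25 was not called (adjusted p = 0.601). Srebf2 (-0.32), Scap (-0.27), Insig2 (0.10), Abcg1 (0.47) and Mylip (0.04) did not pass the test. Acly (-0.69), Scd2 (-0.70), Acaca (-0.61) and Lpin1 (-0.16) did not either, although Lpin1 was called higher without covariates (0.49). The count of 15 was 7 when α9k1-naive replicate 1 was left out (2.97% of all genes lower in that fit), 6 for α9k1-naive replicate 4 (2.99%), and 1 when only both groups compared were fitted (1.09%). Without covariates the count was 25 (27.1%). The genes called higher went from 0 to 1 (Abcg1, 0.72) without GFP-crush replicate 1.

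α9k1-crush replicate 2 stood apart within its group. It was the highest of the 4 libraries for 18 of 18 synthesis enzymes, whose mean lay -0.08 from the GFP-naive mean in this library and between -0.54 and -0.48 in the other 3. Its log2 summed satellite glia level was also the highest of the 4, at 12.03 against 11.24 to 11.67, and its sensory neuron level was the lowest, at 13.80 against 14.06 to 14.27. It was highest as well for the summed markers of nociceptors (12.16 against 8.99 to 11.78), myelinating Schwann cells (13.56 against 12.63 to 13.42) and macrophages (11.48 against 10.75 to 11.18). Its large-diameter neuron sum was the lowest (10.45 against 10.81 to 10.96). Its fibroblast and endothelial sum of 7.91 lay within the range of the others (7.50 to 8.11). Its depth was the greatest of the 4, at 83.6 M read pairs against 47.6 to 73.7 M. Without this library 20 genes were lower in α9k1-crush than in α9k1-naive, and the share of all genes called lower was 7.66%.

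**Figure D3:**
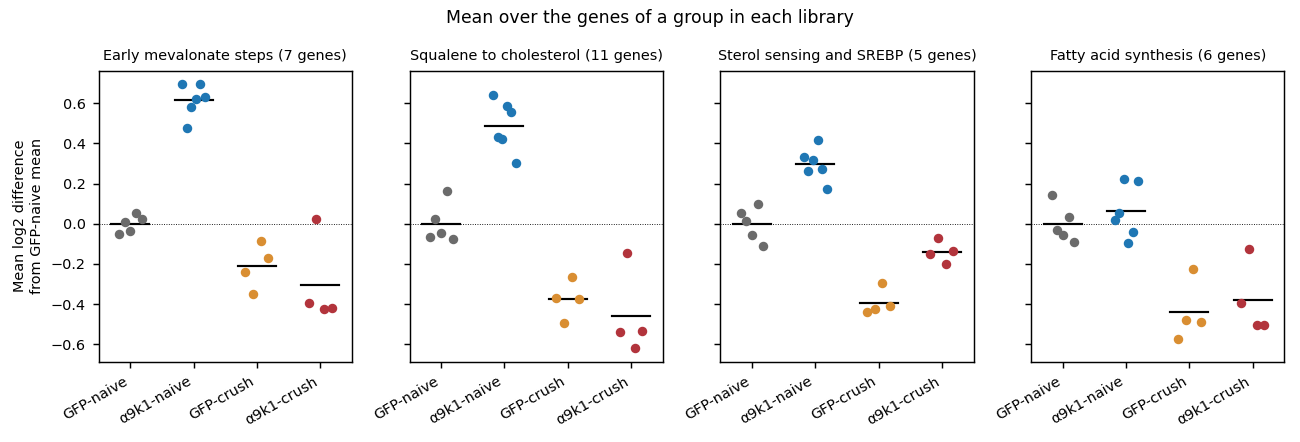
Mean over the genes of a role in each library, as log2 difference from the GFP-naive mean (y axis), by group (x axis). Points are libraries and bars are group means. For the synthesis enzymes the α9k1-naive libraries lie above 0 and the crush libraries below it, except α9k1-crush replicate 2 in the early mevalonate steps, which lies above the other 3 libraries of its group in both sets of enzymes.

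After crush, no gene passed the test between α9k1 and GFP neurons in the fit with covariates. Compared with GFP-crush, 0 of 32 genes were called higher and 0 lower in α9k1-crush, against 0.728% and 0.182% of all genes (limma, 4 of the 32 at an unadjusted p under 0.05). The median log2FC was 0.02, against 0.01 for all genes. Groups did not overlap for 8 genes that were higher (Idi1, Lss, Insig1, Insig2, Scap, Stard4, Acly and Lpin1) and 2 that were lower (Srebf2 and Ebp), against 20.0% and 20.8% of all genes. Lpin1, though higher in level, had a fitted log2FC of -0.22 with covariates, and was called higher without them (0.47). Idi1 had a log2FC of 1.02 ± 0.28 (adjusted p = 0.178), Insig1 of 0.84 ± 0.25 (adjusted p = 0.244) and Stard4 of 0.78 ± 0.32 (adjusted p = 0.492). Srebf2 lay at 5.95, 5.83, 6.36 and 6.06 in GFP-crush and at 4.64, 5.09, 4.67 and 4.75 in α9k1-crush, and its log2FC was -0.72 ± 0.29 (adjusted p = 0.473).

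These differences depended on the covariates, which are partly confounded with the groups. Here the covariates raised the variance of the estimate from 0.5 to 3.11 in units of the residual variance. Without them 10 of the 32 genes were called higher and 11 were called lower, close to the 29.6% higher and 28.3% lower among all genes in that fit. Insig1 (0.83), Idi1 (0.56), Stard4 (0.35) and Srebf2 (-1.26) were among them. Insig1 (1.09) was called when α9k1-naive replicate 6 was left out.

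The difference between the α9k1 effects after and without crush was tested as an interaction. Only Fdps was called (-0.88 ± 0.23, adjusted p = 0.0956), lower, with 0 called higher, against 0.847% lower and 1.35% higher among all genes, and 9 of the 32 genes had an unadjusted p under 0.05. The median of the interaction was -0.36, against 0.07 for all genes, and 17 of 18 synthesis enzymes had a negative value. Stard4, with the lowest value of the 32 genes, was at -1.10 ± 0.31 (adjusted p = 0.111). Without covariates 2 of the 32 genes were called higher and 17 called lower, against 23.3% higher and 16.1% lower among all genes in that fit. The covariates raised the variance of this estimate from 0.867 to 2.78 in units of the residual variance. Fdps was called in 2 of 19 fits without 1 library. Without α9k1-crush replicate 2, Fdps (-0.94), Stard4 (-1.12), Acat2 (-0.89) and Nsdhl (-0.78) were called, with 1.37% of all genes lower.

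Across the 4 groups, α9k1-naive had the highest mean level of 25 of the 32 genes, 18 of 18 synthesis enzymes included, against 21.9% of all genes. The lowest mean was in GFP-crush for 16 genes, in α9k1-crush for 15 and in GFP-naive for 1, against 29.3%, 31.0% and 11.8% of all genes. For Insig1 the order was α9k1-naive (9.58 ± 0.21, SD, n = 6), α9k1-crush (8.41 ± 0.07, n = 4), GFP-naive (7.97 ± 0.08, n = 5) and GFP-crush (7.59 ± 0.04, n = 4), and no neighbouring groups overlapped. For Stard4 the means were 6.22 ± 0.15 in α9k1-naive, 4.58 ± 0.05 in α9k1-crush, 4.33 ± 0.29 in GFP-naive and 4.24 ± 0.12 in GFP-crush, and each of the last 3 groups overlapped with its neighbour. Idi1 was at 7.83 ± 0.09 in α9k1-naive, 6.34 ± 0.11 in GFP-naive, 6.32 ± 0.18 in α9k1-crush and 5.76 ± 0.25 in GFP-crush, so that GFP-naive and α9k1-crush did not differ beyond their spread. Idi1, Lss, Insig1, Stard4 and Acly were higher in every α9k1 library than in every GFP library of the same state, with and without crush, as were 3.72% of all genes. Srebf2 was lower in the same way, as were 5.81% of all genes, with 6.05 ± 0.23 and 6.00 ± 0.09 in GFP-crush and GFP-naive and 5.14 ± 0.31 and 4.79 ± 0.20 in α9k1-naive and α9k1-crush. In all, 27 of the 32 genes were called in at least 1 of the 5 tests, against 44.4% of all genes, and Pmvk, Dhcr7, Insig2, Abcg1 and Lpin1 in none.

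Further genes of lipid metabolism were counted from lists by pathway, to be read against all genes, of which 11.4% were called higher and 17.6% lower in α9k1-naive, 7.39% and 15.7% in GFP-crush, and 4.47% and 5.27% in α9k1-crush against α9k1-naive. Of 13 other genes of sterol and isoprenoid synthesis, 1 was higher (Soat1, which esterifies cholesterol, log2FC 1.24, adjusted p = 0.00532) and 1 was lower (Ggps1, which makes geranylgeranyl diphosphate, -0.44) in α9k1-naive against GFP-naive. After crush in GFP neurons 1 was lower (Ch25h, the cholesterol hydroxylase, -1.50, adjusted p = 0.0233). Of 13 other genes of SREBP control, 1 was higher and 1 lower in α9k1-naive, and 3 were lower in GFP-crush, among them Rxra, the partner receptor of LXR (-1.07, adjusted p = 0.0407). The level of Rxra was low, at 2.21 to 3.13 in GFP-naive and 0.69 to 2.21 (median 2.01) in GFP-crush. None of either list was called in the other comparisons.

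Among 18 other lipoprotein receptors and sterol transporters, 3 were higher and 4 lower in α9k1-naive, near the shares of all genes (11.4% and 17.6%). Lrp8, a lipoprotein and reelin receptor, was higher (1.13, adjusted p = 0.00614). The transporter Abca2 (-0.58, adjusted p = 0.000953) and the lysosomal sterol exporter Npc1 (-0.72) were lower. In GFP-crush 1 was higher and 2 were lower, among them the receptor Lrp1 (-1.17, adjusted p = 0.0139). In α9k1-crush against α9k1-naive 1 was higher (Osbpl1a, an oxysterol-binding protein, 1.0) and 2 were lower (Npc2, a lysosomal sterol carrier, -0.97, and Scarb1, a lipoprotein receptor, -1.19).

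The 24 other genes of fatty acid and glycerolipid synthesis had 7 higher and 2 lower in α9k1-naive, 1 higher and 7 lower in GFP-crush, and 8 lower in α9k1-crush than in α9k1-naive. Mid1ip1, an activator of acetyl-CoA carboxylase (0.79, adjusted p = 2.4e-05), the elongase Elovl5 (0.70, adjusted p = 0.00114) and the malic enzyme Me1 (0.35, adjusted p = 0.0175) were higher in α9k1-naive. In GFP-crush the elongase Elovl6 (-1.05, adjusted p = 0.000482) and the acyl-CoA synthetase Acsl4 (-0.89, adjusted p = 0.002) were lower, and in α9k1-crush the desaturase Fads2 was lowest relative to α9k1-naive (-1.77, adjusted p = 0.00837). Of 15 genes of mitochondrial fatty acid oxidation, 4 were lower and 0 higher in α9k1-naive (Acadl -0.67), 2 were higher and 3 lower in GFP-crush, and 1 was higher in α9k1-crush than in α9k1-naive (Cpt2, 0.89). Of all genes, 11.4% were called higher and 17.6% lower in α9k1-naive, and 7.39% and 15.7% in GFP-crush, near the oxidation counts in GFP-crush.

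Markers of other cells moved with the groups, and their part in the results above was not tested. Of all genes, 11.4% were called higher and 17.6% lower in α9k1-naive, and 7.39% and 15.7% in GFP-crush. The shares in α9k1-crush against α9k1-naive were 4.47% and 5.27%. The 8 satellite glia markers had a log2 summed level of 12.71 to 12.97 in GFP-naive, 12.60 to 13.03 in α9k1-naive, 12.28 to 12.66 in GFP-crush and 11.24 to 12.03 in α9k1-crush. In the naive groups these ranges overlapped, although 3 markers were higher in α9k1-naive (Fabp7, Glul and Slc1a3, with log2FC of 0.54, 0.54 and 0.77) and 1 was lower (Sox10, -1.45). After crush 6 of 8 were lower in GFP-crush, with log2FC of the 8 from -1.05 to -0.41. In α9k1-crush 4 of 8 were lower than in α9k1-naive, with log2FC of the 8 from -2.28 to -0.08.

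The 10 markers of myelinating Schwann cells had summed levels of 13.29 to 13.65 in GFP-naive, 12.14 to 12.52 in α9k1-naive, 13.39 to 14.0 in GFP-crush and 12.63 to 13.56 in α9k1-crush. In α9k1-naive 8 of 10 were lower (Mbp -1.27) and 1 was higher, and 6 were higher in α9k1-crush than in α9k1-naive (Mbp 2.26). In GFP-crush 1 was higher and 1 was lower than in GFP-naive, with a median log2FC of -0.06. Macrophage markers were higher in α9k1-naive and in GFP-crush than in GFP-naive, 7 of 8 in each, with sums of 8.90 to 9.48 in GFP-naive, 10.54 to 11.09 in α9k1-naive, 11.12 to 11.78 in GFP-crush and 10.75 to 11.48 in α9k1-crush. Fibroblast and endothelial markers had sums of 9.32 to 9.67 in GFP-naive, 6.70 to 8.17 in α9k1-naive, 8.17 to 8.64 in GFP-crush and 7.50 to 8.11 in α9k1-crush. Of these, 6 of 6 were lower in α9k1-naive and 4 of 6 in GFP-crush. In α9k1-crush 3 of 6 were higher than in α9k1-naive (median log2FC 1.39), and 3 were higher in the interaction. Without covariates that median was 0.44 with 2 called higher, and 5 were higher in the interaction. The 10 sensory neuron markers had sums of 13.23 to 13.56 in GFP-naive, 12.61 to 12.92 in α9k1-naive, 13.78 to 14.27 in GFP-crush and 13.80 to 14.27 in α9k1-crush. In α9k1-naive 3 of them were lower (Nefl -2.1, Nefm -2.42 and Snap25 -0.48) and 1 was higher (Prph 0.34). Rbfox3, Tubb3, Uchl1, Isl1, Avil and Elavl4 were not called there. In GFP-crush 6 were higher and 0 lower. In α9k1-crush against α9k1-naive 3 were higher (Nefl 2.73, Nefm 2.71 and Snap25 0.92) and 0 lower. The 7 nociceptor markers had sums of 11.64 to 12.62 in GFP-naive, 12.43 to 13.23 in α9k1-naive, 11.25 to 12.64 in GFP-crush and 8.99 to 12.16 in α9k1-crush. Of these, 1 was higher and 0 lower in α9k1-naive, near the shares of all genes (11.4% and 17.6%). All 7 had a negative log2FC in GFP-crush and in α9k1-crush against its naive group. In each, 1 was called lower, against 15.7% and 5.27% of all genes. The 4 markers of large-diameter neurons had sums of 9.42 to 10.23 in GFP-naive, 8.25 to 8.51 in α9k1-naive, 10.04 to 10.89 in GFP-crush and 10.45 to 10.96 in α9k1-crush. In α9k1-naive 2 of these were lower (Nefh -2.32 and Pvalb -1.46) and 1 was higher (Ntrk2 0.49). Nefh and Pvalb were higher in GFP-crush (0.79 and 1.74) and in α9k1-crush against α9k1-naive (2.79 and 2.97). Ntrk2 was lower in both crush comparisons (-1.16 in each). The defining markers of each list were above 0, except that Cx3cr1 and Mrc1 of the macrophages and Pecam1, Kdr and Cdh5 of the endothelium have no row here.

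**Figure D4:**
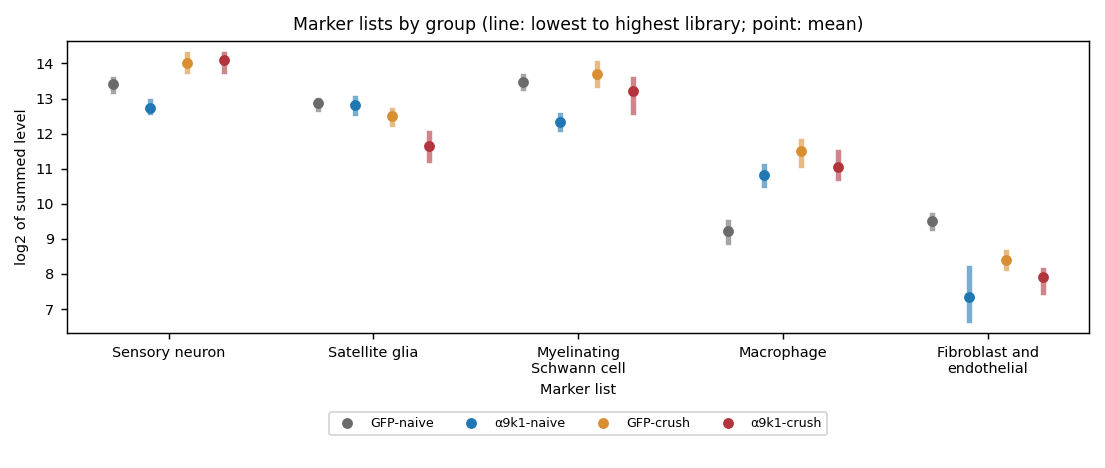
Log2 of the summed level (y axis) of 5 marker lists (x axis) in the 4 groups. Lines run from the lowest to the highest library and points are group means. The satellite glia lists of the naive groups overlap (12.71 to 12.97 and 12.60 to 13.03), those of the Schwann cells do not, and macrophage markers are lowest in GFP-naive.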

How the data were processed

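Log2 expression values for 19 libraries were taken from the table that the authors deposited. Per the study's methods, SMART-Seq v4 libraries were used, and the authors aligned the reads to mm10/GRCm38 with STAR, filtered them with SAMtools, counted them with Salmon, removed genes with under 10 reads in over 80% of samples, and converted the counts, with a small pseudocount, to log2 before normalization by cqn. Since these are log2 values with a pseudocount, differences of low genes are understated. The table holds no gene names, and its row order was taken from the deposited gene table (Fermt1 ranked 1 of 12629 by the difference between α9k1 and GFP libraries). Columns of fold changes and p-values of the authors' comparisons were not used. The deposited Picard metrics table holds counts of reads and bases, fractions, percent dropout and ratios of coverage, as the authors gave them. Depth per gene is unknown from normalized values, so the SD between replicates was used.

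The members and lists were chosen with earlier results of these data known. limma 3.58.1 (R 4.3.3) fitted all 19 libraries with group means and the first 3 principal components of the 48 scaled metrics (45.9%, 24.1% and 11.5% of their variance), of which 34.5%, 52.2% and 74.5% lay between groups. The same component scores were used in every other fit. The study's batch term was not used here, since batch is not among the labels. Adjusted p-values (Benjamini-Hochberg, threshold 0.1) are over all genes and from this two-sided moderated test. The script was tested on simulated data.

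Levels are given by library (lowest, median and highest for α9k1-naive) for the 12 genes with the smallest adjusted p over the 5 tests among those called, which the plot of levels shows, and in the text also for Srebf2, chosen after its values were seen. Of other lists at most 3 called genes per comparison are named. The values of some genes of these lists are not reported here. Groups come from the labels. Alternatives left out the covariates, the other groups, the lowest 25% of genes or each library, subtracted library medians, quantile normalized, weighted libraries or added the replicate number as a block. Tables and figures were made with Python 3.11.15, pandas 2.3.3, numpy 2.4.6 and matplotlib 3.10.9.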

Additional observations from a re-analysis of the deposited data

Results flagged for a closer look

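In 128 sets of 4 to 6 libraries (32 genes in 4 groups), 9 had a library whose gap to the nearest other was a larger share of the range than Dixon's 95% limit allows, where chance gives about 1 in 20. In α9k1-crush, replicate 2 was high for Mvd (6.67, others 6.11 to 6.20) and Ebp (5.64, others 4.95 to 5.02), and replicate 4 was low for Stard4 (4.51, others 4.60 to 4.61). In GFP-crush, replicate 2 was low for Tm7sf2 (6.58, others 6.80 to 6.82). In GFP-naive, replicate 5 was low for Insig2 (4.65, others 5.31 to 5.39) and Stard4 (3.82, others 4.40 to 4.53), and replicate 1 was high for Srebf2 (6.16, others 5.94 to 5.98). In α9k1-naive, replicate 4 was high for Srebf1 (7.74, others 7.12 to 7.32) and replicate 6 for Fasn (6.24, others 5.67 to 5.85).

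The α9k1 effect on Fdps was smaller after crush than without it, by an interaction of -0.88 on the log2 scale (limma, adjusted p = 0.0956). This call was made in 2 of 19 fits without 1 library, and was lost with quantile normalization and with the replicate block.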

How the results depend on the processing

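None of the 49 called differences changed sign under the alternatives. Of the 111 that were not called, 45 did under at least 1 alternative. Of these, 2 were called with the opposite sign, both for Lpin1 without covariates (0.47 against -0.22 in α9k1-crush against GFP-crush, and 0.49 against -0.16 in α9k1-crush against α9k1-naive). Without covariates Scap in α9k1-naive was at 0.09 against -0.11, and Srebf2 in GFP-crush at 0.05 against -0.10. Of the called genes, 14 of 18 in α9k1-naive against GFP-naive, 6 of 15 in GFP-crush against GFP-naive, 5 of 15 in α9k1-crush against α9k1-naive and 0 of 1 in the interaction were called in all 19 fits without 1 library. Over these fits the genes called higher and lower ranged from 14 to 18 and 1 to 2 in α9k1-naive against GFP-naive (2 without GFP-crush replicate 1, which added Abcg1 at -0.40), 0 to 1 and 0 to 0 in α9k1-crush against GFP-crush, 0 to 0 and 6 to 16 in GFP-crush against GFP-naive, 0 to 1 and 6 to 20 in α9k1-crush against α9k1-naive, and 0 to 0 and 0 to 4 in the interaction. Of all genes, 12.5% to 18.4%, 0.0158% to 0.325%, 8.37% to 17.0%, 2.97% to 7.66% and 0.348% to 1.37% were called lower in these fits, and 9.28% to 11.8%, 0.459% to 0.998%, 3.52% to 8.17%, 2.17% to 6.14% and 0.538% to 2.12% higher.

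Without covariates the genes called were 10 higher and 11 lower in α9k1-crush against GFP-crush (29.6% and 28.3% of all genes), 1 higher and 25 lower in α9k1-crush against α9k1-naive (28.5% and 27.1% of all genes), 20 higher and 3 lower in α9k1-naive against GFP-naive (16.5% and 29.5%), and 2 higher and 17 lower in the interaction (23.3% and 16.1% of all genes). In GFP-crush against GFP-naive 0 were higher and 16 lower in that fit (11% and 20.1% of all genes), and 3 of the 15 reported calls were lost. With only the groups compared, 6 were lower in GFP-crush (5.24% of all genes), 1 in α9k1-crush against α9k1-naive (1.09%) and 2 in α9k1-naive (14.0%). There 12 were higher (9.45%), 5 of the 18 calls were lost, and Hsd17b7 was at 0.29 and Sc5d at 0.18. With array weights, 2 genes (Idi1 0.99 and Insig1 0.89) were higher in α9k1-crush against GFP-crush (1.05% of all genes) and 2 were lower in the interaction (1.55%). With library medians subtracted, 9 were lower in GFP-crush (9.34% of all genes, with 14.5% higher) and 2 in the interaction (1.32%), whose median over all genes moved by -0.13. Without the 25% lowest genes 2 were lower in the interaction (1.0% of those tested). With quantile normalization, the calls of Nsdhl and Sc5d in α9k1-naive, of Scap and Acaca in GFP-crush and of Fdps in the interaction were lost. The cause was not tested, other than that smaller fits have fewer samples.

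Replicate numbers do not pair libraries here: the median correlation of deviations was 0.02 for same-numbered libraries of different groups (25 pairs, -0.27 to 0.15) and 0.00 for others (109 pairs). With the replicate number as a block, 13 genes were called higher and 1 was called lower in α9k1-naive (8.96% and 10.4% of all genes), 15 were lower in GFP-crush (14.8%), 1 was lower in α9k1-crush against α9k1-naive (1.39%, from 5.27% without the block) and 0 in the interaction (0.0554%).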
